A study of Homo sapiens with 16 samples.

Results

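The sites described here are places in the genome of LNCaP prostate cancer cells where 3 kinds of signal met: binding of the transcription factor HOXB13, binding of the histone deacetylase HDAC3, and open chromatin. A control HOXB13 peak was included when peaks of the control HDAC3 and control ATAC-seq lists each overlapped it by at least 1 bp, on chromosomes 1 to 22 and X. This rule was met by 5253 of 90813 control HOXB13 peaks (5.78%). Of the remaining HOXB13 peaks, 6893 had HDAC3 without an ATAC peak, 4088 had an ATAC peak without HDAC3, and 74579 had neither. The sites were thus chosen by the peak calls of the 3 control lists, whose values are given as a description only. The other 9 lists were not used in the choice.

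HOXB13 is a homeodomain protein of the prostate epithelium that binds DNA and works beside the androgen receptor and FOXA1 at many prostate enhancers. HDAC3 removes acetyl groups from histones and is the catalytic deacetylase of the NCOR and SMRT corepressor complexes, which transcription factors bring to DNA. HDAC1 is a related deacetylase that acts in other complexes, such as NuRD, Sin3 and CoREST. ATAC-seq marks open chromatin, because a transposase inserts sequencing adapters where DNA is accessible, and acetylation of histone H3 at lysine 27 (H3K27ac) marks active enhancers and promoters. G84E is an inherited coding variant of HOXB13 that is associated with prostate cancer risk.

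LNCaP, an androgen-sensitive line from a lymph node metastasis, was infected for 7 days in each of its groups. The groups were a control shRNA vector (pGIPZ), an shRNA against HOXB13 (shHOXB13), and shHOXB13 together with a lentivirus for wild-type HOXB13 (WT) or for G84E. PC-3, an androgen-independent line from a bone metastasis, carried pGIPZ or shHOXB13, and its infection time was not given in the sources used here. The LNCaP libraries were HOXB13 ChIP-seq in all 4 groups, HDAC3 ChIP-seq and ATAC-seq (50000 cells) in the control and knockdown, and HDAC1 ChIP-seq in the control. The PC-3 libraries were HOXB13 in the control and H3K27ac in the control and knockdown, and the HOXB13 antibody for PC-3 came from another supplier than that for LNCaP. The LNCaP cells with WT or G84E carried the HOXB13 shRNA too, and the amount of each introduced protein was not measured in these libraries.

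Each group was 1 library, so no test between conditions was possible, and intervals cover counting error or the variation among sites, not that among cultures. The libraries held 13.5 to 47.2 M tags (M for mega). The HOXB13 list shrank from 91430 peaks in the control to 22864 after knockdown, and held 190879 with WT and 191796 with G84E. Tag counts are the authors' normalized counts per 10000000 tags, in fixed-width peaks. The width differed between some libraries compared here (for HDAC3 471 bp against 365 bp after knockdown, for ATAC 96 and 111 bp), so ratios are also given per bp. An uncalled peak means signal under the calling threshold, not absence of signal.

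In the control libraries these sites were strong for each of the 3 signals. HOXB13 tag counts had a median of 11.1, from 5.53 at the 5th to 37.0 at the 95th percentile, against medians of 9.89 at HOXB13 sites with HDAC3 alone, 10.5 with ATAC alone and 6.98 with neither. HDAC3 had a median of 20.4 (10.2 to 48.2), against 13.9 where ATAC was not called. ATAC had a median of 5.81 (3.32 to 13.6), against 4.70 where HDAC3 was not called. The stronger 50% of the full HOXB13, HDAC3 and ATAC lists held 77.0%, 73.0% and 59.7% of the sites. HOXB13 signal stood over the surrounding 10000 bp by a median of 8.73-fold in the authors' deposited values, against 6.58-fold at all other HOXB13 peaks.

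**Figure D1:**
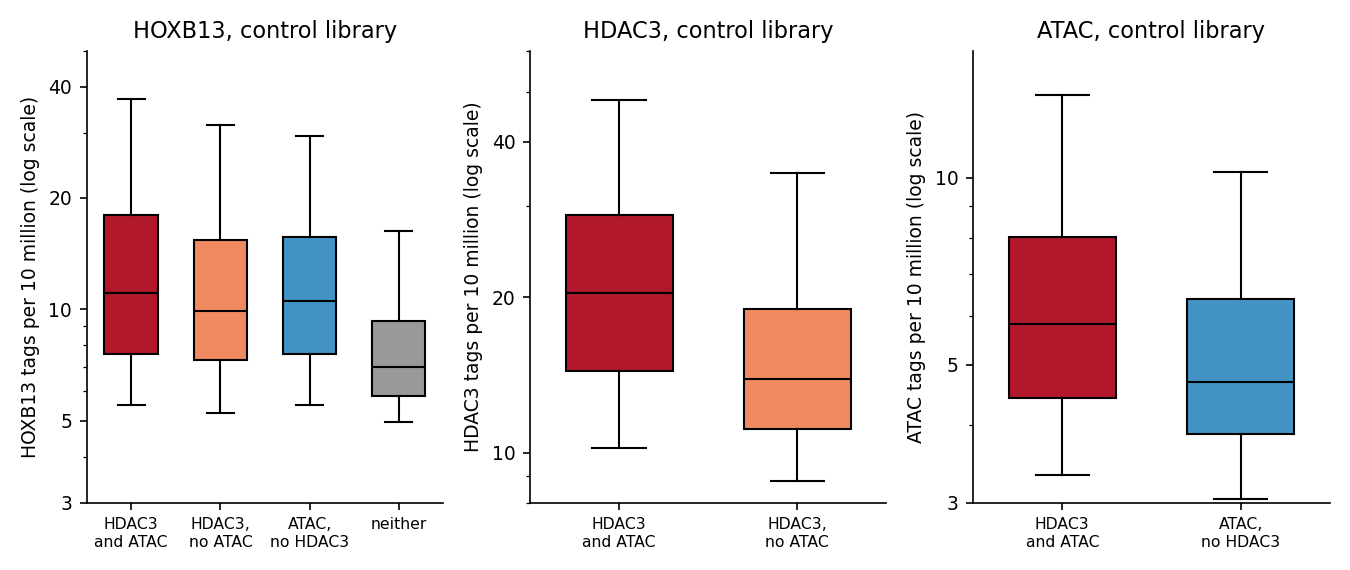
Control tag counts per 10000000 tags (log axes) of HOXB13, HDAC3 and ATAC at control HOXB13 sites, by the control peaks found there. Boxes span the 25th to 75th percentile with the median as a line, and whiskers reach the 5th and 95th percentiles. The sites with HDAC3 and ATAC have the highest median in every panel (11.1, 20.4 and 5.81), and the boxes overlap.

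Among the sites the strength of HOXB13 showed little relation to that of the other signals. Spearman's rho over the 5253 sites was 0.041 between HOXB13 and HDAC3 tag counts and −0.052 between HOXB13 and ATAC, while HDAC3 and ATAC gave 0.36. These are descriptions across sites of the same libraries. The HDAC3 peak centre lay a median of 83 bp and the ATAC centre 66 bp from the HOXB13 centre. Both lay within 100 bp at 2331 sites (44.4%).

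Sites just inside and just outside the rule had the following values. The 69 sites whose HDAC3 peak overlapped by 1 to 20 bp had a median HOXB13 tag count of 8.15 and ATAC of 6.37. The 52 open HOXB13 peaks that an HDAC3 peak missed by 20 bp or less had 9.89 and 5.95. For ATAC, 227 sites with an overlap of 1 to 20 bp had medians of 8.73 for HOXB13 and 19.9 for HDAC3, and the 168 just outside had 9.46 and 21.3. ATAC was called after knockdown at 62.1% of these 227 and 51.2% of the 168. HDAC1 lay at 13 (18.8%) of the 69 inside the HDAC3 edge and 17 (32.7%) of the 52 outside it. At the ATAC edge the order was the reverse, with HDAC1 at 21.6% inside and 13.7% outside. HDAC3 was called after knockdown at 47.8% of the 69 and 48.1% of the 52.

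The sites with the highest HOXB13 tag counts are given here among those off chromosome 8 and called in fewer than 9 of the 12 lists. That count includes the knockdown lists, so the choice favours sites that lost peaks. The highest was chr1:145246240-145246530 (hg19), with 125.4 HOXB13 tags in the control, no peak after knockdown, 135.6 with WT and 89.4 with G84E. Its control HDAC3 (63.1) and ATAC (7.20) peaks were not called after knockdown. Thus HOXB13 was called with both introduced forms there, and the HDAC3 and ATAC peaks were called in the control alone. At chr20:10639420-10639710 HOXB13 had 88.8 tags in the control, no peak after knockdown, 106.5 with WT and 105.9 with G84E. The HDAC3 peak there (23.7) was not called after knockdown, but ATAC was called in both libraries (6.09 and 7.06). At chr7:20998929-20999219 the HOXB13 counts were 85.3, no peak, 75.7 and 72.6 in the same order, HDAC3 went from 34.8 to no peak, and ATAC was 7.20 and 7.06. The pattern was the same at chr5:14717192-14717482, with HOXB13 at 82.4, no peak, 67.5 and 57.7, HDAC3 at 49.6 and no peak, and ATAC at 6.64 and 6.67. At chr10:127322116-127322406 (89.6, no peak, 112.5 and 89.6) neither HDAC3 (25.5) nor ATAC (3.60) was called after knockdown. At these 5 sites HOXB13 was not called after knockdown and was called with both introduced forms. HDAC3 was called there in the control alone, and ATAC was called again at 3. In the strongest of 5 equal groups of all the sites by HOXB13 tag count, HDAC3 was called again at 56.4% and ATAC at 68.4%.

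HOXB13 itself was called again after knockdown at few of the sites. A knockdown HOXB13 peak lay at 278 of them, 5.29% (95% CI 4.72 to 5.93), against 1.38% of all control HOXB13 peaks. Compared with other HOXB13 peaks of equal control tag count the share was 3.48 percentage points higher (95% CI 2.86 to 4.10). Without peaks called in 9 or more lists (widely called peaks, a count that includes the knockdown list) the difference was 0.558 points (0.0945 to 1.02), and 1.58 points when peak centres had to lie within 100 bp. Against HOXB13 sites with HDAC3 alone it was 0.780 points (−0.0196 to 1.58), and against sites with ATAC alone 2.07 (1.24 to 2.89).

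The sites called again differed from the rest in the other factors found there. HDAC1 was present at 51.4% of the 278 and at 15.1% of the others, a difference of 33.1 points at equal HOXB13 tag count (27.2 to 39.0). HDAC3 was called again at 80.9% and 59.2%, or 13.1 points apart at equal HDAC3 tag count (8.45 to 17.8). The smallest matching group held 6 sites for HDAC1 and 9 for HDAC3. Without widely called peaks 1.98% of the remaining 3693 sites were called again, so most of the 278 were widely called. Being widely called counts the HDAC1 and knockdown HDAC3 lists, and these splits were not repeated without such sites. The highest of the 278 outside the widely called regions and off chromosome 8 was chr17:21906125-21906415. It had 24.7 HOXB13 tags in the control, 33.3 after knockdown, 31.5 with WT and 20.4 with G84E. HDAC3 (96.5 and 98.4) and ATAC (27.7 and 38.9) were called there in both conditions. At chr10:130262654-130262944 the HOXB13 count was 11.6 in the control, 25 after knockdown and 6.46 with WT, with no G84E peak. Both were picked for their knockdown count, so their order says nothing of the other sites called again.

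**Figure D2:**
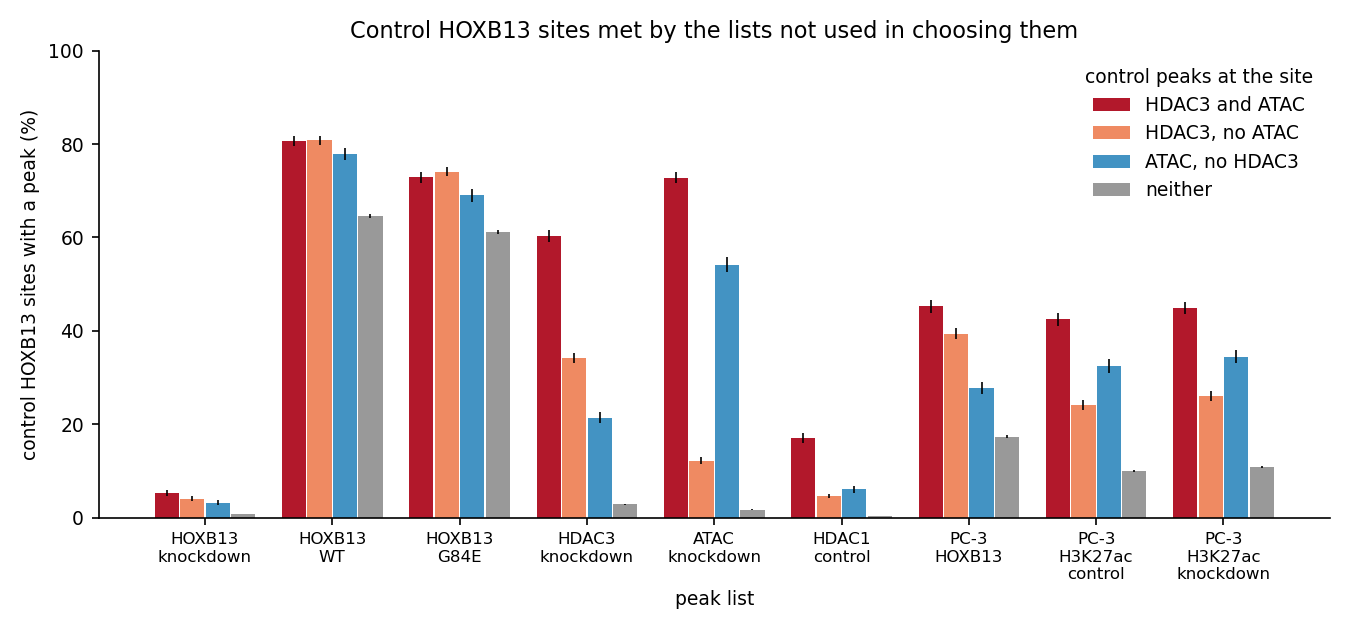
Share of control HOXB13 sites (percent, bars, with Wilson 95% intervals as lines) that had a peak in each of the 9 lists not used in choosing them, for sites with control HDAC3 and ATAC peaks, with HDAC3 or ATAC alone, and with neither. Sites with both marks stand highest for HDAC3 (60.3%) and ATAC (72.8%) after knockdown, HDAC1 (17.0%) and the PC-3 lists. As counted, before matching on tag count, they stand level with the HDAC3-alone sites for WT (80.6%) and G84E (72.9%).

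Introduced HOXB13 was found at most of the sites, WT more often than G84E. A WT peak lay at 4236 sites, 80.6% (95% CI 79.5 to 81.7), against 67.4% of all control HOXB13 peaks, and a G84E peak at 3828, 72.9% (71.7 to 74.1), against 63.2%. Both forms were found at 3522 sites (67.0%), WT alone at 714 (13.6%), G84E alone at 306 (5.83%) and neither at 711 (13.5%). Most of the distance from the background went with HOXB13 strength. At equal control tag count WT was 0.972 points higher than at other HOXB13 peaks (−0.0220 to 1.97) and for G84E the difference was −3.13 points (−4.24 to −2.02). The WT difference changed sign under other rules, to −0.475 with close centres, −1.50 in the better-scoring 50% of the lists, −8.98 with equal numbers of peaks and −2.81 without widely called peaks. G84E stayed below other HOXB13 peaks under each of these, and reached −13.7 with equal numbers of peaks. The direction depended on the class compared, at equal control tag count. Against open sites without HDAC3 the differences were 1.65 points for WT (0.155 to 3.14) and 2.32 for G84E (0.685 to 3.96). Against sites with HDAC3 alone they were −1.85 (−3.10 to −0.598) and −3.48 (−4.86 to −2.10).

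The gap between the forms was wider at these sites than over all other HOXB13 peaks, but not than at open sites without HDAC3. The share with WT exceeded that with G84E by 7.77 points at these sites and by 3.96 at other HOXB13 peaks, 4.10 points apart at equal control tag count (2.90 to 5.30). Open HOXB13 sites without HDAC3 had a gap of 8.93 points, which did not differ beyond counting error at equal tag count (difference −0.674 points, −2.43 to 1.08). Sites with HDAC3 alone had 6.70 (difference 1.63, 0.161 to 3.11).

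Tag counts were also lower with G84E than with WT. Where both forms had a peak, the median log2 ratio of G84E over WT was −0.35 (95% CI −0.37 to −0.34) over 3522 sites, or −0.39 per bp. A log2 ratio of −1 or below was found at 205 sites (5.82%), against 4% of all control HOXB13 peaks with both forms, and one of 1 or above at 3, against 0.606%. The mean log2 ratio differed from that at other HOXB13 peaks by −0.075 at equal WT tag count (−0.088 to −0.062) and by −0.12 at equal mean of both forms. The median was −0.31 at sites with HDAC3 alone and −0.31 at those with ATAC alone. WT over control had a median log2 ratio of −0.013 here and 0.19 at other HOXB13 peaks, a difference of means of −0.18 at equal control tag count. A rise of 1 or more over the control was found at 107 sites (2.53%), against 10.3% of all, and a fall of 1 or more at 118 (2.79%), against 1.48%. Open sites without HDAC3 were close to these sites, with a median of 0, such rises at 2.98% and such falls at 2.85%. At sites with HDAC3 alone the values were 0.10, 6.80% and 2.33%.

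Outside widely called regions and off chromosome 8, the largest G84E deficit among well-covered sites (mean tag count at or above the median) was at chr5:93712503-93712793. HOXB13 had 16 tags there in the control, no peak after knockdown, 25.6 with WT but 7.92 with G84E (G84E over WT, log2 ratio −1.69, 95% CI −2.29 to −1.13 from tag counts). At chr1:199550974-199551264 the counts were 27.6, no peak, 27.1 and 9.96 (−1.44, −1.98 to −0.93). At chr13:77717758-77718048 they were 10.5, no peak, 22.8 and 8.83 (−1.37, −1.95 to −0.82). HDAC3 was called in both libraries at all 3 and was lower after knockdown, at 26.9 and 16, 24.1 and 12.5, and 26.9 and 10.3. The largest G84E excess was smaller, at chr12:83325013-83325303, with 10.5 tags in the control, 12.2 with WT but 20.1 with G84E (log2 ratio 0.72, 0.21 to 1.26). The intervals take no account of these regions having been picked as extreme.

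HDAC3 was called again after HOXB13 knockdown at 3170 of the sites, 60.3% (95% CI 59.0 to 61.7), against 9.35% of all control HOXB13 peaks. Of the latter 13.4% had a control HDAC3 peak. Counted by HDAC3 peaks, 47.6% of all control HDAC3 peaks and 65.5% of those on the sites were called again. Sites with HDAC3 but no ATAC peak kept it at 34.2%, and at equal control HDAC3 tag count the open sites were 14.8 points higher (12.9 to 16.7). With close centres the share was 29.4% and the difference 4.75 points (2.39 to 7.12). Retention ran with HDAC3 strength, from 42.1% (weakest) to 79.3% (strongest) over 5 equal groups, and went the other way with HOXB13 strength, from 66.4% to 56.4%.

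A second comparison held HDAC3 and open chromatin fixed and asked about HOXB13. The sites rested on 5252 control HDAC3 peaks, of which 65.5% were called again, against 68.6% of 8083 control HDAC3 peaks with ATAC and no HOXB13. At equal HDAC3 tag count the difference was −3.47 points (−5.02 to −1.93), and it was 0.848 (−1.30 to 2.99) with close centres. It was −2.87 with an overlap of 50% of the shorter peak, −8.84 in the better-scoring 50% of the lists and −10.5 with equal numbers of peaks. Without widely called peaks it was −8.70, a setting that leaves out peaks by a count that includes the knockdown HDAC3 list. HDAC1 divided it. Among HDAC3 peaks without HDAC1 those on the sites were called again less often (59.4% against 60.5%, −2.82 points at equal tag count, −4.87 to −0.769), and among those with HDAC1 more often (86.0% against 77.0%, 4.78 points, 2.58 to 6.98).

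HDAC3 tag counts at the sites that kept a peak were mostly lower after knockdown. The median log2 ratio was −0.54 (95% CI −0.56 to −0.52), or −0.17 per bp, and 83.9% of the 3170 sites were below 0. A fall to a log2 ratio of −1 or below was found at 659 (20.8%), against 18.5% of all control HOXB13 peaks with HDAC3 in both libraries. A rise of 1 or more was found at 5, against 0.489%. At HDAC3 sites without ATAC the median was −0.43. At equal control tag count the open sites were 0.037 higher on the mean (0.0063 to 0.068), so the order turned with matching. By HDAC3 peaks, those on the sites had a median of −0.54 and those with ATAC and no HOXB13 −0.46, a difference of means of −0.057 at equal tag count (−0.078 to −0.037). Since control peaks chose the sites, the fall itself is not independent of the choice, and the matched differences are the comparison. The estimated HDAC3 fragment length was 146 bp (control) against 364 bp (knockdown), and its part in the fall was not tested.

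**Figure D3:**
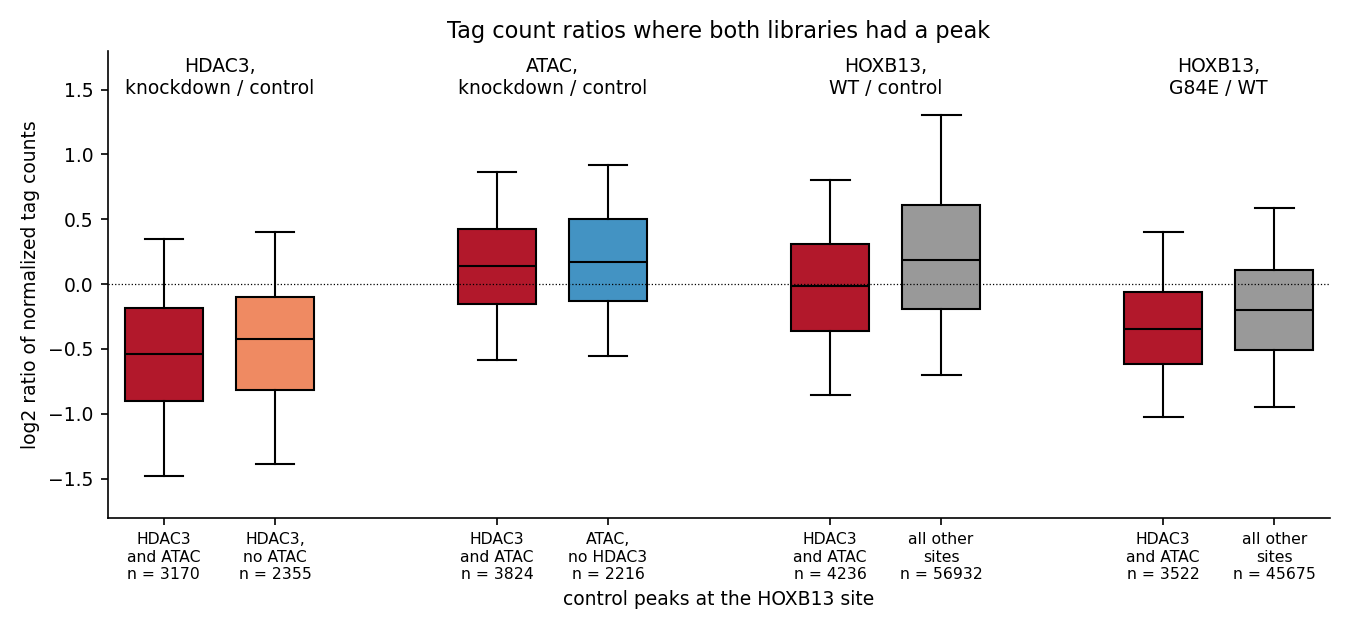
Log2 ratios of normalized tag counts at HOXB13 sites where both libraries had a peak, with n the number of sites. Boxes span the 25th to 75th percentile with the median as a line, whiskers reach the 5th and 95th percentiles. The open sites with HDAC3 have medians of −0.54 for HDAC3, 0.14 for ATAC, −0.013 for WT over control and −0.35 for G84E over WT.

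Among well-covered sites outside widely called regions and off chromosome 8, the largest HDAC3 falls were several-fold. At chr12:54332217-54332507 HDAC3 had 145.6 control tags and 22 knockdown tags (log2 ratio −2.73, 95% CI −3.15 to −2.32). ATAC there was 6.92 and 9.03, and HOXB13 had 6.40 in the control, no peak after knockdown, 8.44 with WT and 5.88 with G84E. At chr11:6640671-6640961 HDAC3 had 250.4 and 45.6 (−2.46, −2.75 to −2.17) with ATAC at 8.86 and 8.63. At chr7:33551421-33551711 it had 36.2 and 6.46 (−2.49, −3.34 to −1.71) with ATAC at 7.47 and 8.63. Each of these 3 sites kept an ATAC peak, of 8.63 to 9.03 tags after knockdown, while HDAC3 fell. The largest rise was at chr3:188906281-188906571, from 10.2 to 25.5 (1.32, 0.61 to 2.09), where ATAC was 3.60 and 6.28.

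Which mark was kept more often depended on the unit counted. An ATAC peak was called after knockdown at 3824 sites, 72.8% (95% CI 71.6 to 74.0), against 8.93% of all control HOXB13 peaks. Of the latter 10.3% had a control ATAC peak. Counted by ATAC peaks, 49.8% of all control ATAC peaks were kept. At the HOXB13 site ATAC was thus called again more often than HDAC3 (60.3%), but with a knockdown peak counted anywhere on the control ATAC or HDAC3 peak the shares were 63.9% and 65.5%. Open HOXB13 sites without HDAC3 kept theirs at 54.2%, and at equal ATAC tag count the sites with HDAC3 were 10.2 points higher (8.49 to 11.9). By ATAC peaks, 63.0% of 5447 on the sites were called again, against 58.8% of 10383 with HDAC3 and no HOXB13, or 5.57 points more at equal tag count (4.07 to 7.07). With equal numbers of peaks that difference was 1.72 (−1.20 to 4.64).

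After knockdown both HDAC3 and ATAC were called at 2463 sites (46.9%), ATAC alone at 1361 (25.9%), HDAC3 alone at 707 (13.5%) and neither at 722 (13.7%). Losses of the 2 marks went together: HDAC3 was kept at 64.4% of sites that kept ATAC and at 49.5% of those that did not, 10.6 points apart at equal HDAC3 tag count (7.49 to 13.7). ATAC tag counts where both libraries had a peak had a median log2 ratio of 0.14, or −0.055 per bp, so the direction depended on the peak width. A rise of 1 or more was found at 105 sites (2.75%), against 3.03% of all control HOXB13 peaks with ATAC in both, and a fall of 1 or more at 12, against 0.397%. The median fell from 0.61 (weakest) to −0.035 (strongest) over 5 groups of control ATAC count. Weak sites enter only if their knockdown peak was called.

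Among well-covered sites outside widely called regions and off chromosome 8, the largest ATAC falls were small in tags. At chr4:78739330-78739620 ATAC had 12.2 control tags and 5.49 knockdown tags (log2 ratio −1.15, 95% CI −2.13 to −0.25). HDAC3 there went from 17.6 to 9.88, and no HOXB13 peak was called after knockdown, with WT or with G84E. The largest rise was at chr11:102962959-102963249, from 3.60 to 13.3 (1.89, 0.93 to 2.94). HDAC3 (25) was not called there after knockdown, and H3K27ac in PC-3 was 168.4 in the control and 213.7 after knockdown. At chr20:33113838-33114128 ATAC rose from 4.70 to 13.0 (1.47, 0.58 to 2.40), and HDAC3 (31.5) was again not called after knockdown.

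HDAC1, the other deacetylase measured, lay at 894 of the sites, 17.0% (95% CI 16 to 18.1), against 1.89% of all control HOXB13 peaks. Counted by HDAC3 peaks, 22.7% of those on the sites had HDAC1, against 20.7% of all control HDAC3 peaks. The share was 4.56% at HOXB13 sites with HDAC3 alone and 6.04% at those with ATAC alone. At equal HDAC3 tag count the sites were 7.41 points above the former (5.99 to 8.82), and at equal ATAC tag count 8.59 above the latter (7.16 to 10.0). With close centres the first of these was −0.305 (−1.52 to 0.914), and the second 1.98. Without widely called peaks they were 2.61 (1.51 to 3.71) and 1.90 (0.751 to 3.05), a setting that counts the HDAC1 list itself. The HDAC1 share of the sites was then 7.42%. HDAC1 was far less frequent here than at HDAC3 peaks with open chromatin and no HOXB13, where 49.2% of the 8083 peaks had it. That difference was −26.8 points at equal HDAC3 tag count (−28.3 to −25.3), −8.75 for close centres, and −38.5 once the lists had equal numbers of peaks.

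**Figure D4:**
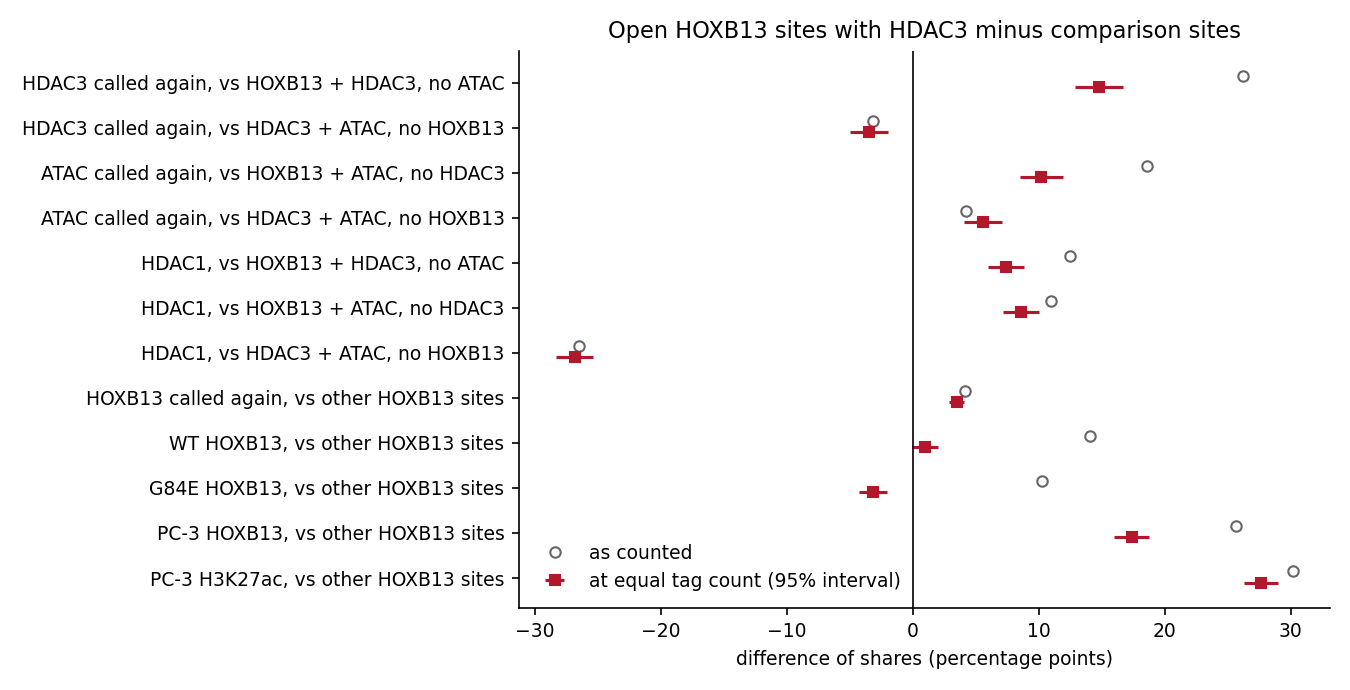
Differences of shares in percentage points between the open HOXB13 sites with HDAC3 and the comparison named on each line, as counted (open circles) and at equal control tag count (squares with 95% intervals). The widest falls on either side are HDAC1 against HDAC3 and ATAC peaks without HOXB13 (−26.8) and PC-3 H3K27ac against other HOXB13 sites (27.6), and matching moved WT (14.1 to 0.972) and G84E (10.3 to −3.13) most.

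HDAC1 went with weak HOXB13 and strong HDAC3. Its share fell from 28.9% (weakest) to 7.43% (strongest) over 5 equal groups of HOXB13 tag count, and rose from 6.28% to 36.1% over groups of HDAC3 tag count. Sites with HDAC1 kept HDAC3 after knockdown at 79.8% and those without at 56.4%, 14.5 points apart at equal HDAC3 tag count (11.5 to 17.6). ATAC was kept at 86.8% and 69.9%, or 4.66 points apart at equal ATAC tag count (2.34 to 6.97). WT HOXB13 was found at 67.2% of sites with HDAC1 and 83.4% without, −6.11 points at equal HOXB13 tag count (−9.39 to −2.83). For G84E the shares were 59.8% and 75.5%, −3.33 points (−6.78 to 0.114). These splits were not repeated without widely called sites, a count that includes HDAC1 and the lists compared.

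The highest HDAC1 counts outside widely called regions and off chromosome 8 stood at sites with modest HOXB13. At chr3:20227702-20227992 HDAC1 had 73.8 tags, HDAC3 177.2 in the control and 40.3 after knockdown, and ATAC 13.8 and 16.9. HOXB13 had 9.89 in the control and no peak in the other LNCaP libraries. At chr5:178012526-178012816 HDAC1 had 78.8, HDAC3 38.0 and 28.5, and HOXB13 9.89 in the control, 21.8 after knockdown and 4.22 with WT. At chr1:155023244-155023534 HDAC1 had 67.4, HDAC3 46.4 and 53.6, and HOXB13 6.98 in the control alone among the LNCaP libraries. The choice of sites called in fewer than 9 lists favours places with few HOXB13 peaks, and over all sites with HDAC1 most had a WT peak, as given above.

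**Figure D5:**
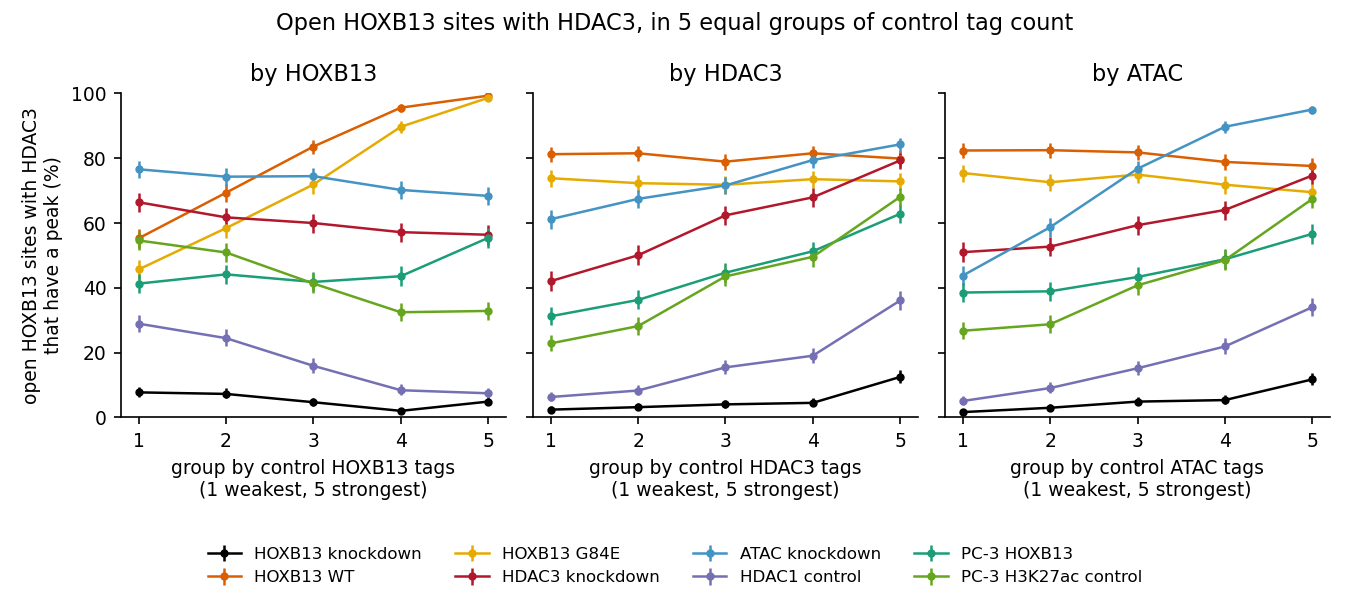
Share of the open HOXB13 sites with HDAC3 (percent, points, with Wilson 95% intervals) that had a peak in each list, in 5 equal groups by control HOXB13, HDAC3 or ATAC tag count from weakest (1) to strongest (5). With HOXB13 strength WT climbs from 55.3% to 99.3% and HDAC1 drops from 28.9% to 7.43%, and with HDAC3 strength HDAC3 after knockdown climbs from 42.1% to 79.3%.

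In PC-3 many of the LNCaP sites had HOXB13 and H3K27ac. A PC-3 HOXB13 peak lay at 2377 sites, 45.3% (95% CI 43.9 to 46.6), against 21.1% of all control HOXB13 peaks. At equal LNCaP HOXB13 tag count that was 17.4 points above other HOXB13 peaks (16 to 18.8). It was 4.11 points above sites with HDAC3 alone (39.4%, interval 2.35 to 5.88) and 16.6 above those with ATAC alone (27.7%, 14.6 to 18.5). Without widely called peaks the difference from other HOXB13 peaks was −0.384 (−1.87 to 1.11), a setting that counts the PC-3 lists themselves. A PC-3 control H3K27ac region lay at 2229 sites, 42.4% (41.1 to 43.8), against 14% of all control HOXB13 peaks. At equal tag count that was 27.6 points above other HOXB13 peaks (26.3 to 29.0), or 6.50 without widely called peaks. The gap was smaller against the nearest classes. At equal tag count it was 18.3 points against sites with HDAC3 alone (24.1%) and 10.4 against those with ATAC alone (32.4%). Sites with neither mark had H3K27ac at 10.1%. After HOXB13 knockdown in PC-3 the H3K27ac share of the open HOXB13 sites with HDAC3 was 44.9%, against 14.9% of all control HOXB13 peaks.

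HOXB13 and H3K27ac met at the same sites in PC-3, and not only at the sites described here. Both were found at 1598 sites (30.4%), against 5.91% of other HOXB13 peaks. Among the open HOXB13 sites with HDAC3, H3K27ac lay at 67.2% of those with PC-3 HOXB13 and at 21.9% of those without. The shares were 46.2 points apart at equal LNCaP HOXB13 tag count (43.9 to 48.5). H3K27ac lay at 79.2% of the sites with LNCaP HDAC1 and 34.9% of those without (40.5 points, 37.3 to 43.7). Sites that LNCaP and PC-3 shared had related strength, with a Spearman's rho of 0.44 between the lines over 2377 sites. Outside widely called regions and off chromosome 8, the highest PC-3 HOXB13 count was 193.8 at chr1:16930903-16931193, where LNCaP control had 65.8. The next was 184.4 at chr10:68620354-68620644, where LNCaP control had 69.0. The first had PC-3 H3K27ac (212.5 in the control, 323.2 after knockdown), and the second had none called.

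H3K27ac at these places was slightly higher in the PC-3 knockdown library, as it was over the whole list. The sites lay in 2423 H3K27ac loci, of which 2206 were called in both PC-3 libraries. Their median log2 ratio of knockdown over control was 0.37 (95% CI 0.35 to 0.39), against 0.32 for loci with other HOXB13 peaks and 0.27 for all loci. A rise of 1 or more was found at 161 loci (7.30%), against 8.46% of all loci, and a fall of 1 or more at 10 (0.453%), against 2.45%. Loci of HOXB13 sites with ATAC alone were close to these, with a median of 0.35 (0.33 to 0.38), such rises at 7.99% and such falls at 0.310%. For HDAC3 alone the values were 0.33 (0.30 to 0.35), 8.87% and 1.37%. The share of tags in H3K27ac regions was 38.9% for the control and 46.2% for the knockdown.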

How the data were processed

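Peak lists of 12 libraries were analysed, and the 4 LNCaP H3K27ac samples were not analysed here. The submitters' processing notes name Bowtie2, HOMER 4.2 and hg19. The authors ran HOMER findPeaks on each library without an input, per the file headers, at a false discovery rate of 0.001. Factor-style peaks were required to reach 4-fold over their 10000 bp surroundings, with a local p-value of 0.0001, per the file headers. PC-3 H3K27ac regions were stitched from 1000 bp windows. The signal is the deposited normalized tag count per 10000000 tags. The deposited findPeaks score ranked peaks only. The fold over local background is deposited as the authors' value for each peak, and the deposited fraction of tags near the peak centre was not used. Values under 10 came out as whole tags within 0.1 tags (100%).

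Lists were joined by an overlap of at least 1 bp, and where several peaks met, the highest tag count was used. Shares have Wilson and plain differences Newcombe 95% intervals. Differences at equal tag count were averaged over 10 equal groups of the tag count named in the text, with normal 95% intervals. That was a control count, except for G84E over WT. The weights came from the open HOXB13 sites with HDAC3 or the peaks on them, and in splits among these sites from the first subset named. Tag counts still varied within a group. In comparisons with other HOXB13 peaks, the strongest group held 32.7% of the sites. A total of 48 differences of shares and 6 of log2 ratios were computed. Medians have order-statistic intervals, and single-region ratios exact (Clopper-Pearson) ones. These cover counting error or the variation among sites. The overlap and matching code was tested on simulated data. H3K27ac regions linked by overlap were summed into loci.

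The sites, lists and comparisons were chosen with earlier results of these data known. Named regions were, among sites called in fewer than 9 lists and off chromosome 8, the 5 highest for HOXB13, and the 3 most extreme for each change (mean tag count at or above the median), for HOXB13 called again, for HDAC1 and for PC-3 HOXB13, not all of which are printed. Genes, motifs and sequences are not reported, since neither hg19 sequence nor hg19 annotation was used. Coordinates are as in the files. Python 3.11.15, numpy 2.4.6, pandas 2.3.3, scipy 1.17.1 and matplotlib 3.10.9 were used.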

Additional observations from a re-analysis of the deposited data

How the results depend on the processing

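No paired analysis was possible because each group was 1 library. The number of sites was 2346 with peak centres within 100 bp, 4212 with an overlap of 50% of the shorter peak, 2012 when each list kept its better-scoring 50%, 1065 when all lists had the same length, and 3693 without peaks called in 9 or more lists. Of 74 differences recomputed, 66 kept their direction and their side of 0. For WT HOXB13 against other HOXB13 peaks the difference was −0.475, −1.50, −8.98 and −2.81 points with close centres, better-scoring lists, equal numbers and no widely called peaks. HDAC1 against HDAC3 without ATAC was −0.305 and HDAC3 peaks called again against those without HOXB13 0.848 with close centres, ATAC peaks called again 1.72 with equal numbers, and PC-3 HOXB13 −0.384 without widely called peaks. With close centres the shares of the sites were 2.86% for HOXB13, 29.4% for HDAC3 and 63.3% for ATAC after knockdown, 72.7% for WT, 65.4% for G84E, 4.94% for HDAC1, and in PC-3 36.8% for HOXB13 and 34.6% for H3K27ac. In the same order the 50% overlap gave 3.61%, 44.4%, 69.4%, 77.1%, 69.5%, 7.88%, 41.5% and 38.9%, and lists without widely called peaks 1.98%, 50.6%, 65.9%, 77.3%, 68.1%, 7.42%, 27.2% and 20.6%. That last setting counts the outcome lists, so it lowers every share by construction. The better-scoring lists moved HOXB13 to 6.06%, ATAC to 70.4%, HDAC1 to 13.2%, PC-3 HOXB13 to 40.7% and H3K27ac to 34.6%. Equal numbers moved ATAC to 74.6%, WT to 59.4%, G84E to 50.2%, HDAC1 to 15.1%, PC-3 HOXB13 to 33.2% and H3K27ac to 24.2%. Counting a knockdown peak anywhere on the control HDAC3 or ATAC peak, added after the data were seen, gave 65.5% and 63.9%. Median log2 ratios per bp were −0.17 for HDAC3, −0.055 for ATAC, 0.069 for WT over control and −0.39 for G84E over WT. The medians of tag count ratios moved to −0.60 for HDAC3 and −0.38 for G84E with close centres, to −0.61, 0.11 and 0.099 for HDAC3, ATAC and WT with equal numbers, and to 0.16 and −0.38 for ATAC and G84E without widely called peaks. The cause of the other moves was not tested. With 1 library per group the spread between cultures is not known.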

Other observations

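The sites were spread over the genome as single places. Of the 5253, 95.7% lay more than 10000 bp from the next, and the 112 groups closer than that held at most 3 sites. The largest share of HOXB13 peaks that met the rule was on chromosome 19, with 221 of 1306 (16.9%), followed by chromosome 22 (8.45%) and chromosome 16 (8.09%), and the lowest was on chromosome 18 (3.77%), against 5.78% in all. The 221 sites on chromosome 19 had a median HOXB13 tag count of 8.15, the lowest of any chromosome, with HDAC1 at 41.2% and PC-3 H3K27ac at 71.0%, against 17.0% and 42.4% of all the sites. The densest stretch of 1000000 bp was chr19:58000001-59000000 (hg19), with 13 sites.

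Peaks of 9 or more of the 12 lists were found at 1560 of the sites (29.7%), and of all 12 at 41. The 10 sites above 200 HOXB13 tags were all among the 1560. The highest was chr1:121485073-121485363, with 9132.2 HOXB13 tags in the control and 15711.1 after knockdown, and HDAC3 at 16809.1 and 11979.8. The next was chr19:27731940-27732230, with 3211.9 and 6450.0 HOXB13 tags. These 2 had peaks in all 12 lists, whereas the 1560 sites had a median of 10.5 control HOXB13 tags, against 11.3 at the other sites.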
